A study of Mus musculus with 21 samples.

Results

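The clustered protocadherins are neuronal cell-surface cadherins made from 3 gene clusters that lie side by side on mouse chromosome 18. Their members were taken by name, as every deposited symbol that begins with Pcdha, Pcdhb or Pcdhg and goes on to a variant number, with or without the extra letter of the gamma A, gamma B and C-type names. The rule gave 56 of 21872 symbols: 13 in the alpha cluster, 22 in the beta cluster and 21 in the gamma cluster. The alpha members were Pcdha1 to Pcdha9, Pcdha11, Pcdha12, Pcdhac1 and Pcdhac2. The gamma members were 12 of the A type, 6 of the B type and the C-type genes Pcdhgc3, Pcdhgc4 and Pcdhgc5. No genotype or strain was given for the mice. Controls received water, and the treated mice, labelled copper-deficient, received trientine (TETA), a drug that binds copper. RNA sequencing libraries came from brain at embryonic day 18.5 (E18.5), with 6 control and 6 TETA libraries, and at 7 weeks after birth, with 5 control and 4 TETA libraries. The labels call the tissue brain throughout. Their protocol text mentions the prefrontal cortex of males aged 7 weeks, and gives neither region nor sex for E18.5. Nothing in the labels says that replicates came from separate animals, so p-values measure the spread between these libraries, which may be technical. The E18.5 libraries carry paired numbers (1-1, 1-2, 2-1 and so on), and the labels do not say whether a shared first number means a litter, an animal or a batch. The series title names the role of copper in the developing brain and in autism.

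Each clustered protocadherin variant has its own promoter and its own large exon, which encodes the extracellular domain, the membrane span and the start of the cytoplasmic tail. In the alpha and gamma clusters this variable exon is spliced to constant exons shared by the whole cluster, whereas beta genes lack a constant exon. Most variants are chosen at random in each neuron, through promoter methylation and looping by CTCF and cohesin, so that a neuron shows a combination of variants and recognises other cells by matching them. The 5 C-type variants at the downstream ends of the alpha and gamma clusters are not chosen this way and are regulated by cell type and age: Pcdhac2 is needed for serotonergic axons to spread, Pcdhgc3 for dendrite branching in cortical neurons, and Pcdhgc4 for neuronal survival.

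All 56 symbols were found in the GENCODE M21 annotation of the mm10 build, on the plus strand of chromosome 18. The alpha genes spanned bases 36930184 to 37187661 (257 kb), the beta genes 37264938 to 37524479 (260 kb), and the gamma genes 37661793 to 37841873 (180 kb). The symbol Pcdha11 names more than 1 gene model there. Because constant exons belong to every alpha or every gamma gene, levels were compared between genes per kilobase of exon that no other gene on that strand uses. The counting of reads in shared exons was not given in the sources used here. Pcdha4, whose exclusive sequence is 0.494 kb, had between 0 and 0.507 CPM (counts scaled for the depth of the library, with TMM factors) in every library, against up to 66.8 CPM for Pcdhac2. Constant-exon reads were therefore not added to every alpha gene. How reads that match several near-identical beta or gamma variants were counted is likewise unknown. Nor is it known whether strand was used in counting: antisense exons cover 1559 of the 3380 exclusive bases of Pcdhgc3, 1381 of 2637 in Pcdhga11, 1927 of 3034 in Pcdhb12 and all 2613 in Pcdhga10, but none in Pcdhac1, Pcdhac2, Pcdhgc4, Pcdhgc5 or Pcdhga6.

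The libraries of E18.5 were 14678265 to 24308555 counts deep and those of 7 weeks 17838051 to 24035857. The clustered protocadherins took 13160 to 21354 counts at E18.5, or 0.0869% to 0.0978% of a library, and 12018 to 16849 at 7 weeks, or 0.0674% to 0.0727%. None was among the 1940 genes of the E18.5 table that are at 0 in control 1-1 and hold only multiples of 11 elsewhere. Neuronal markers summed to between 5722 and 6202 CPM at E18.5 and between 10677 and 11329 CPM at 7 weeks, and none was at 0. Markers of striatal projection neurons separated the groups at 7 weeks, at 1253 to 1544 CPM in controls and 578 to 725 CPM with TETA, with 13 of 13 called lower. At E18.5 they summed to 678 to 749 and 686 to 720 CPM, and 0 of 13 were called. Libraries with and without Y-linked transcripts were present in both E18.5 groups, whose summed Y-linked levels ran from 0 to 220 CPM in controls and from 0 to 189 CPM with TETA. In bulk tissue a smaller number of expressing cells and less RNA per cell cannot be told apart.

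A C-type variant had the highest level in the alpha and the gamma cluster at each age, while the beta cluster was more even. Values in this paragraph are levels in control libraries, as CPM per kilobase of exclusive exon. In the alpha cluster Pcdhac2 led at both ages, at 13.7 ± 0.910 (SD, n = 6) at E18.5 and 21.4 ± 0.384 (n = 5) at 7 weeks. Pcdha12 followed, at 6.78 ± 0.528 and 5.69 ± 1.00, and at E18.5 it did not differ from Pcdha5, at 6.32 ± 0.637, beyond their spread. The alpha median was 3.84 at E18.5 and 2.39 at 7 weeks. The leader of the gamma cluster changed with age. At E18.5 it was Pcdhgc3, at 42.8 ± 2.76, ahead of Pcdhgc4 at 15.7 ± 0.734 and Pcdhga11 at 15.3 ± 0.857, which lay within each other's spread. At 7 weeks it was Pcdhgc5, at 34.0 ± 0.859, ahead of Pcdhgc3 at 23.0 ± 1.55 and Pcdhga11 at 8.33 ± 1.03, with a gamma median of 4.27. Other C-type genes were low: Pcdhac1 at 0.924 and Pcdhgc5 at 1.58 at E18.5 were under the medians of their clusters (3.84 and 5.18), and Pcdhgc4 stood at the gamma median at 7 weeks. Beta levels were lower. Pcdhb20, Pcdhb7 and Pcdhb17 led at E18.5, at 5.37 ± 0.522, 5.29 ± 0.487 and 5.22 ± 0.336, and Pcdhb9, Pcdhb17 and Pcdhb20 at 7 weeks, at 4.23 ± 0.355, 4.12 ± 0.398 and 4.02 ± 0.177. The spreads overlapped within each of these beta trios, so their order is not resolved.

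Comparing control libraries at 7 weeks with control libraries at E18.5 asks how levels differ between the ages. The C-type genes moved in opposite directions: Pcdhgc5, Pcdhac1 and Pcdhac2 rose, and Pcdhgc3 and Pcdhgc4 fell. Most of the other alpha and gamma variants fell, while the beta cluster was mixed. Of 54 members tested, 44 (81.5%) were called at an adjusted p below 0.05, from the quasi-likelihood test of edgeR adjusted over all genes, 7 of them higher and 37 lower at 7 weeks. The background was high, since 89.3% of all 14660 genes tested were called (44% higher and 45.3% lower), so a call by itself sets no member apart. The median log2 fold change was -0.41 over the members and -0.02 over all genes. Age cannot be told apart here from brain region or from the 2 separately deposited tables. Sex make-up differs between the ages as well, since Y-linked transcripts summed to 0 to 220 CPM in E18.5 controls and to 136 to 154 CPM in 7-week controls. Scaling by library totals in place of TMM moved the median of all genes to -0.17, and with it Pcdha1, Pcdhb6 and Pcdhb9, none of them called, changed sign, Pcdhb10 and Pcdhb14 lost their calls, and Pcdhb2, Pcdhb3 and Pcdhga6 gained one as lower at 7 weeks.

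Pcdhgc5, the last variant before the gamma constant exons (chromosome 18, 37819513 to 37841873), had the largest change of any member. Its level was 5.66 CPM in the lowest E18.5 control, 7.10 at the median and 8.63 in the highest, and 156, 157, 159, 161 and 151 CPM in the 5 controls of 7 weeks. Every 7-week library lay far above every E18.5 library, and the log2 fold change was 4.43 (SE 0.061), a 21.6-fold difference, with an edgeR adjusted p of 2.00e-33. Pcdhac1, the first of the alpha C-type genes, was low at E18.5 and near the alpha median at 7 weeks, at 2.45 against 2.39 CPM per kilobase. It ran from 1.25 CPM through a median of 2.55 to 2.91 at E18.5 and stood at 7.01, 6.07, 6.03, 6.29 and 5.96 CPM at 7 weeks. The groups did not overlap, and its log2 fold change was 1.39 (SE 0.12, edgeR adjusted p 6.69e-12). Pcdhac2, the neighbouring variant tied to serotonergic axons, ran from 39.3 through 40.1 to 46.5 CPM at E18.5 and stood at 64.1, 64.0, 66.8, 64.3 and 64.6 CPM at 7 weeks. It too was higher in every 7-week control, with a smaller log2 fold change of 0.65 (SE 0.057, edgeR adjusted p 3.04e-12).

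The other gamma C-type genes fell. Pcdhgc4, the variant needed for neuronal survival, ran from 51.1 through 54.6 to 58.6 CPM at E18.5 and stood at 13.5, 15.8, 15.5, 14.2 and 15.2 CPM at 7 weeks. The groups were far apart and the log2 fold change was -1.87 (SE 0.057, edgeR adjusted p 3.53e-24), a 3.66-fold lower level. Pcdhgc3, the dendrite-branching variant, ran from 136 through 144 to 161 CPM at E18.5 and stood at 77.5, 79.7, 69.1, 79.3 and 83.0 CPM at 7 weeks. It was lower in each 7-week control, with a log2 fold change of -0.89 (SE 0.049, edgeR adjusted p 3.94e-17). So 3 genes that follow each other within the last part of the gamma cluster changed by -0.89, -1.87 and 4.43 on the log2 scale. The TETA libraries, which are other samples, gave values of -1.13, -1.95 and 4.22 for the same genes, and 1.15 for Pcdhac1 and 0.46 for Pcdhac2.

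**Figure D1:**
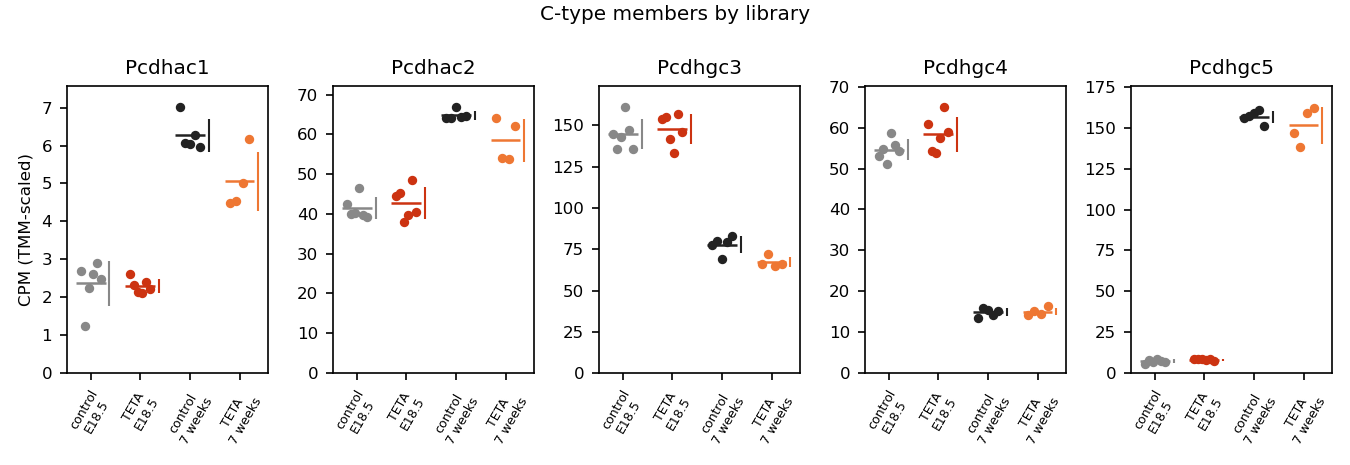
Level of the 5 C-type members in each library, in TMM-scaled CPM on axes that start at 0; points are libraries, horizontal lines group means and vertical bars SD (n = 6, 6, 5 and 4 from left to right). Pcdhac1, Pcdhac2 and Pcdhgc5 sit higher in all 7-week libraries, Pcdhgc3 and Pcdhgc4 lower, and within each age the control and TETA libraries overlap.

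Among the alpha variants other than C-type, 10 were tested, 8 were called lower at 7 weeks and 0 higher, with a median log2 fold change of -0.78. Over all genes 45.3% were called lower and 44% higher. Pcdha2, near the upstream end of the cluster, fell most: its levels of 8.71 to 11.3 CPM (median 9.37) at E18.5 compare with 2.91, 3.59, 3.72, 3.49 and 3.11 CPM at 7 weeks. The groups were well separated, at a log2 fold change of -1.51 (SE 0.11, edgeR adjusted p 1.44e-14). Pcdha3, its downstream neighbour, changed by -1.20 (SE 0.094). Pcdha1 and Pcdha8 were not called, at 0.02 and -0.69. Pcdha8 was sparse, at 0.282 to 1.18 CPM in the controls, and Pcdha4, at or below 9 counts in every library, did not pass the filter on low counts.

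All 6 gamma B variants were called lower, between -0.31 and -1.16 on the log2 scale. So were 9 of 12 gamma A variants, with 0 called higher, against 45.3% of all genes called lower and 44% higher. The largest change among the B type was in Pcdhgb7, from 14.5 ± 0.913 CPM (SD, n = 6) to 6.48 ± 0.593 (n = 5), with Pcdhgb6 close by, from 26.9 ± 1.41 to 13.3 ± 0.732. Their log2 fold changes were -1.16 (SE 0.073) and -1.02 (SE 0.056). Pcdhga11, the most abundant A variant per kilobase, fell from 40.4 ± 2.26 to 22.0 ± 2.71 CPM, or by -0.87 (SE 0.068) on the log2 scale. Pcdhga5, Pcdhga6 and Pcdhga9 were not called, at 0.17, -0.15 and 0.18, though Pcdhga6 was with library totals, at -0.30.

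The beta genes, which carry no constant exon, went both ways. Of 21 tested, 4 were called higher at 7 weeks (19%, against 44% of all genes), 12 lower (57.1%, against 45.3%) and 5 were not called. The median log2 fold change was -0.28. Pcdhb1 had at most 0.169 CPM in any library and was not tested. The 4 that rose, Pcdhb10, Pcdhb12, Pcdhb13 and Pcdhb14, lie within a run of 5 neighbouring genes that also holds Pcdhb11, which fell, at -0.69. With library totals Pcdhb10 and Pcdhb14 were not called (edgeR adjusted p 0.0664 and 0.178). Pcdhb12 rose most, from a range of 4.59 to 6.52 CPM (median 4.89) to 10.8, 11.1, 10.4, 10.9 and 9.61 CPM, and its groups did not overlap, at a log2 fold change of 1.00 (SE 0.11, edgeR adjusted p 2.56e-10). Pcdhb13 changed by 0.69 (SE 0.10). Pcdhb4 fell most, from 6.99 ± 0.5 CPM (SD, n = 6) to 2.79 ± 0.528 (n = 5), at -1.33 (SE 0.12), and Pcdhb7, among the 3 highest beta genes at E18.5, fell to 8.95 ± 0.652 CPM from 18.5 ± 1.70, at -1.04 (SE 0.075). The order of genes along a cluster did not track these changes closely: as a description across genes, which share libraries and are not independent, Spearman's rho between position and log2 fold change was 0.27 over 10 alpha, -0.06 over 21 beta and 0.04 over 18 gamma A and B genes.

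**Figure D2:**
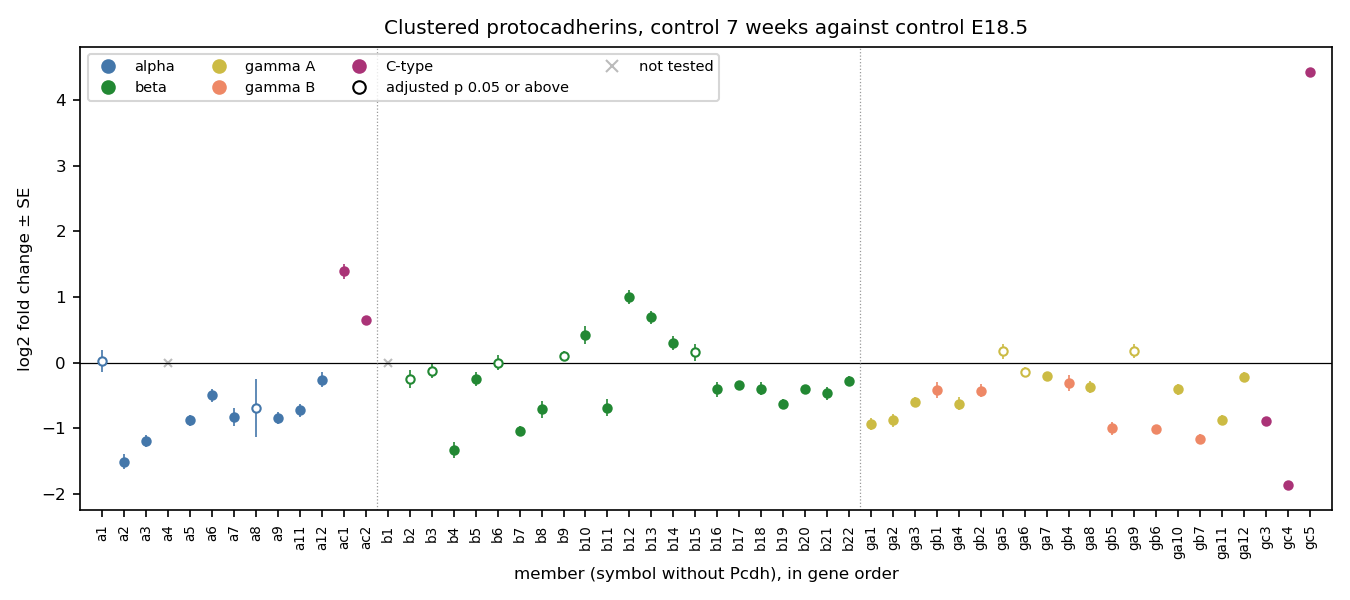
Log2 fold change of each member between control libraries at 7 weeks and at E18.5, with its SE, in gene order along chromosome 18; dotted lines part the alpha, beta and gamma clusters, filled points have an adjusted p under 0.05, open points do not, and crosses drawn at 0 are members not tested. Pcdhgc5 stands alone at 4.43, next to Pcdhgc4 at -1.87.

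In 5 members every 7-week control was above every E18.5 control and in 27 every one was below, out of 54, where 39.3% and 40.3% of all genes separated in these directions. Those 5 were the C-type genes Pcdhac1, Pcdhac2 and Pcdhgc5 and the beta genes Pcdhb12 and Pcdhb13. Between the TETA libraries of the 2 ages, 47 of 54 members were called, 7 of them higher and 40 lower, against 88.1% of all genes (43.6% higher and 44.5% lower).

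The totals of the clusters were lower at 7 weeks in controls by 0.14 to 0.30 on the log2 scale with TMM scaling, and by 0.28 to 0.44 with library totals, with no test made on summed levels. The alpha total was 144 ± 3.91 CPM (SD, n = 6) at E18.5 and 131 ± 4.27 (n = 5) at 7 weeks in controls, a log2 ratio of -0.14. The beta total was 217 ± 15.8 and 177 ± 6.44 CPM, a ratio of -0.30. The gamma total was 498 ± 20.8 and 450 ± 5.43 CPM, a ratio of -0.15. These hide opposite changes inside the alpha and gamma clusters. Without the C-type genes the alpha sum went from 100 ± 3.44 to 60 ± 3.66 CPM, and the sum of the gamma A and B types from 291 ± 11.7 to 201 ± 6.24 CPM.

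**Figure D3:**
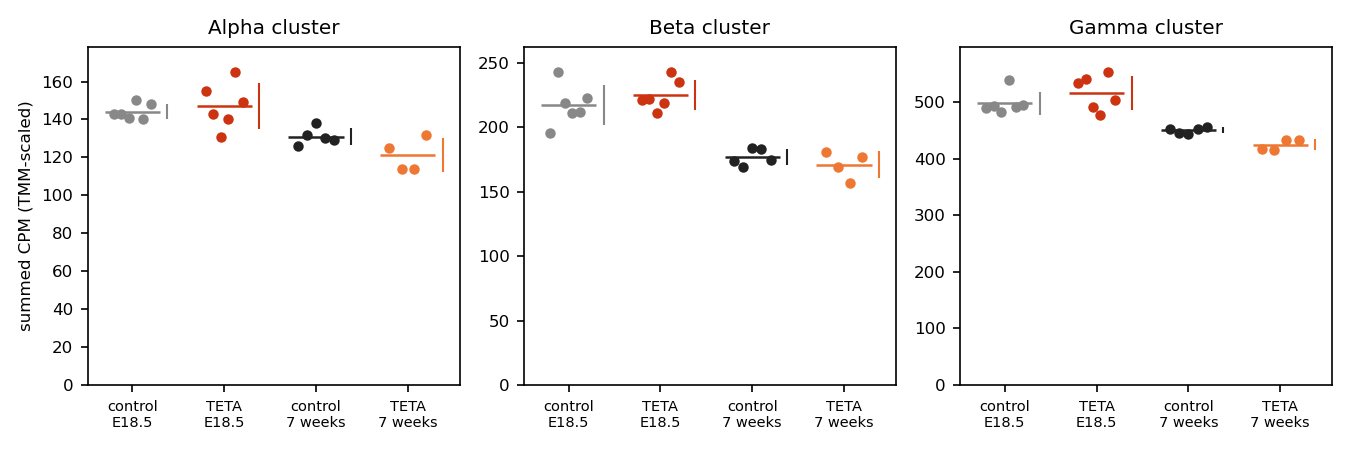
Summed level of the alpha, beta and gamma members in each library, in TMM-scaled CPM on axes that start at 0; points are libraries, horizontal lines group means and vertical bars SD. Totals at 7 weeks lie below most E18.5 totals, and TETA and control libraries overlap within each age except for the gamma total at 7 weeks, at 415 to 433 against 444 to 456.

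The make-up of the alpha and gamma clusters therefore differed by age. In controls Pcdhgc5 held 1.46% ± 0.178 (SD, n = 6) of gamma counts at E18.5 and 34.8% ± 1.15 (n = 5) at 7 weeks, while Pcdhgc3 went from 29.1% ± 1.16 to 17.3% ± 1.04 and Pcdhgc4 from 11% ± 0.265 to 3.30% ± 0.235. The A and B types together went from 58.5% ± 1.11 to 44.6% ± 1.07. In the alpha cluster Pcdhac2 went from 28.7% ± 1.56 to 49.4% ± 1.00 of counts and Pcdhac1 from 1.64% ± 0.416 to 4.79% ± 0.451. Shares do not depend on the scaling between libraries, and none of these ranges overlapped between the ages. The effective number of variants, the exponential of the Shannon entropy of the shares, was 8.71 ± 0.187 and then 6.17 ± 0.117 in the alpha cluster and 13.4 ± 0.345 and then 10.9 ± 0.288 in the gamma cluster, whereas the beta cluster held 17.1 ± 0.194 and 18 ± 0.203. The division between the clusters moved little: alpha held 16.8% and 17.3% of member counts, beta 25.3% and 23.3%, and gamma 57.9% and 59.4%.

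**Figure D4:**
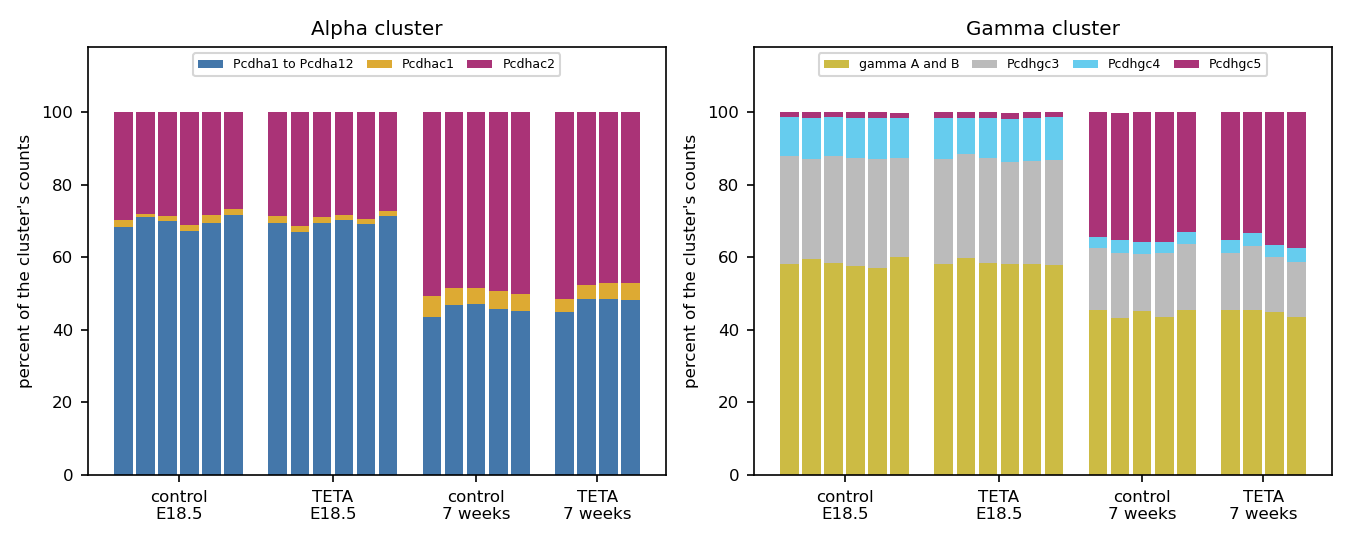
Percent of alpha counts (left) and gamma counts (right) held by each C-type gene and by the remaining variants together, 1 bar per library grouped by age and treatment; each bar adds to 100 but for rounding. Pcdhgc5 is a thin band at E18.5 (mean 1.46% in controls) and the widest C-type band of the gamma panel at 7 weeks (34.8%), with TETA bars resembling those of controls.

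The comparison of TETA with control at E18.5 asks whether the copper chelator was followed by different protocadherin levels in the fetal brain. No member was called. In edgeR 0 of 54 members were called, and so were 0 of 13794 genes, 0% of them, while 4 members (7.41%) and 660 genes (4.78%) had an unadjusted p under 0.05. DESeq2 called 10 genes, of which 0 were members. The median log2 fold change was 0.04 over the members and -0.00 over all genes. The alpha total was 147 ± 11.7 CPM (SD, n = 6) with TETA against 144 ± 3.91 in controls, the beta total 225 ± 11.6 against 217 ± 15.8 and the gamma total 516 ± 30.0 against 498 ± 20.8, all within the spread.

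The smallest p-values at E18.5 belonged to Pcdhgb7, Pcdha2 and Pcdhb6. Pcdhgb7, a gamma B variant, ran from 13.2 CPM through a median of 14.4 to 15.9 in controls and from 15.4 through 16.0 to 18.7 with TETA. The groups overlapped, at a log2 fold change of 0.19 (SE 0.061, edgeR adjusted p 0.801). Pcdha2 had 0.24 (SE 0.085) and Pcdhb6 0.28 (SE 0.10), and edgeR adjusted p-values of 0.882 and 0.893. Among the C-type genes the log2 fold changes were -0.07 (SE 0.15) for Pcdhac1, 0.04 (SE 0.058) for Pcdhac2, 0.03 (SE 0.046) for Pcdhgc3, 0.09 (SE 0.046) for Pcdhgc4 and 0.17 (SE 0.087) for Pcdhgc5, with the edgeR adjusted p at 0.996 in all 5. In no member did the control and TETA libraries separate, where 0.138% of all genes separated upwards and 0.181% downwards.

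At 7 weeks the same comparison gave small decreases in 2 gamma genes. Of 53 members tested, Pcdhgc3 and Pcdhga6 fell with TETA and none rose, 3.77% of the members against a background of 9.96% of 14240 genes called (5.67% higher and 4.28% lower). The alpha cluster had 0 of 11 called, the beta cluster 0 of 21 and the gamma cluster 2 of 21. An unadjusted p under 0.05 was reached by 17.0% of the members and 24.0% of all genes. The median log2 fold change was -0.05 over the members and 0.00 over all genes.

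Pcdhgc3 stood at 77.5, 79.7, 69.1, 79.3 and 83.0 CPM in the controls and at 66.2, 72.0, 64.9 and 65.9 CPM with TETA. Only control 3 reached into the range of the TETA libraries. Its log2 fold change was -0.20 (SE 0.048), a 1.15-fold lower level, with an edgeR adjusted p of 0.0109. Pcdhga6, a gamma A variant with no antisense exon over it, stood at 13.4, 15.0, 15.9, 16.3 and 14.4 CPM in the controls and at 12.3, 11.9, 11.6 and 13.6 CPM with TETA. Library TETA 4 overlapped the lowest control, and the log2 fold change was -0.27 (SE 0.075), with an edgeR adjusted p of 0.0256. The call of Pcdhga6 was lost without control 3, control 4, TETA 1, TETA 2 or TETA 3 (edgeR adjusted p 0.0572 to 0.0927), while Pcdhgc3 was called whichever library was left out. Striatal markers moved with the treatment in these libraries, as given above. Astrocyte markers summed to 5894 to 6806 CPM in controls and 5388 to 5764 with TETA, and 3 of 8 were called lower. Most of that sum is Slc1a2, with a mean of 4114 CPM in controls and 3536 with TETA. Gja1 and Aqp4, not called, had log2 fold changes of 0.10 and -0.01, so the list did not move as a whole. With the striatal score as a covariate, whose ranges in the 2 groups do not overlap, edgeR called 0 members and 0 of all genes. Pcdhgc3 then had a log2 fold change of -0.25 and Pcdhga6 of -0.20. The part of tissue composition in the 2 decreases was not tested further.

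Pcdhga5, the gamma A gene next upstream of Pcdhga6 among the A type, was nearest to the threshold, at 11.5, 11.4, 13.2, 10.6 and 13.8 CPM in controls and 10.2, 7.31, 11.3 and 8.96 with TETA. Its log2 fold change of -0.33 (SE 0.11) had an edgeR adjusted p of 0.0579. Pcdhga5 was called lower by DESeq2 (adjusted p 0.0427), and by edgeR with no filter on low counts (adjusted p 0.0447), without TETA 3 (0.0235) or without control 4 (0.0471), so its call depends on these settings. The alpha C-type genes were lower on average without passing. Pcdhac1 had 4.49, 4.53, 5.02 and 6.17 CPM with TETA, and its log2 fold change was -0.30 (SE 0.11, edgeR adjusted p 0.0987, and 0.0314 without TETA 4). Pcdhac2 had 64.1, 54.1, 53.7 and 62.1 CPM, so that 1 TETA library lay within the control range and 3 below it. The log2 fold change was -0.13 (SE 0.049, edgeR adjusted p 0.0927, and 0.0251 without TETA 1). Pcdhgc4 and Pcdhgc5 had log2 fold changes of 0.03 (SE 0.069) and -0.03 (SE 0.041), so the genes with the largest differences between ages were not called for TETA.

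**Figure D5:**
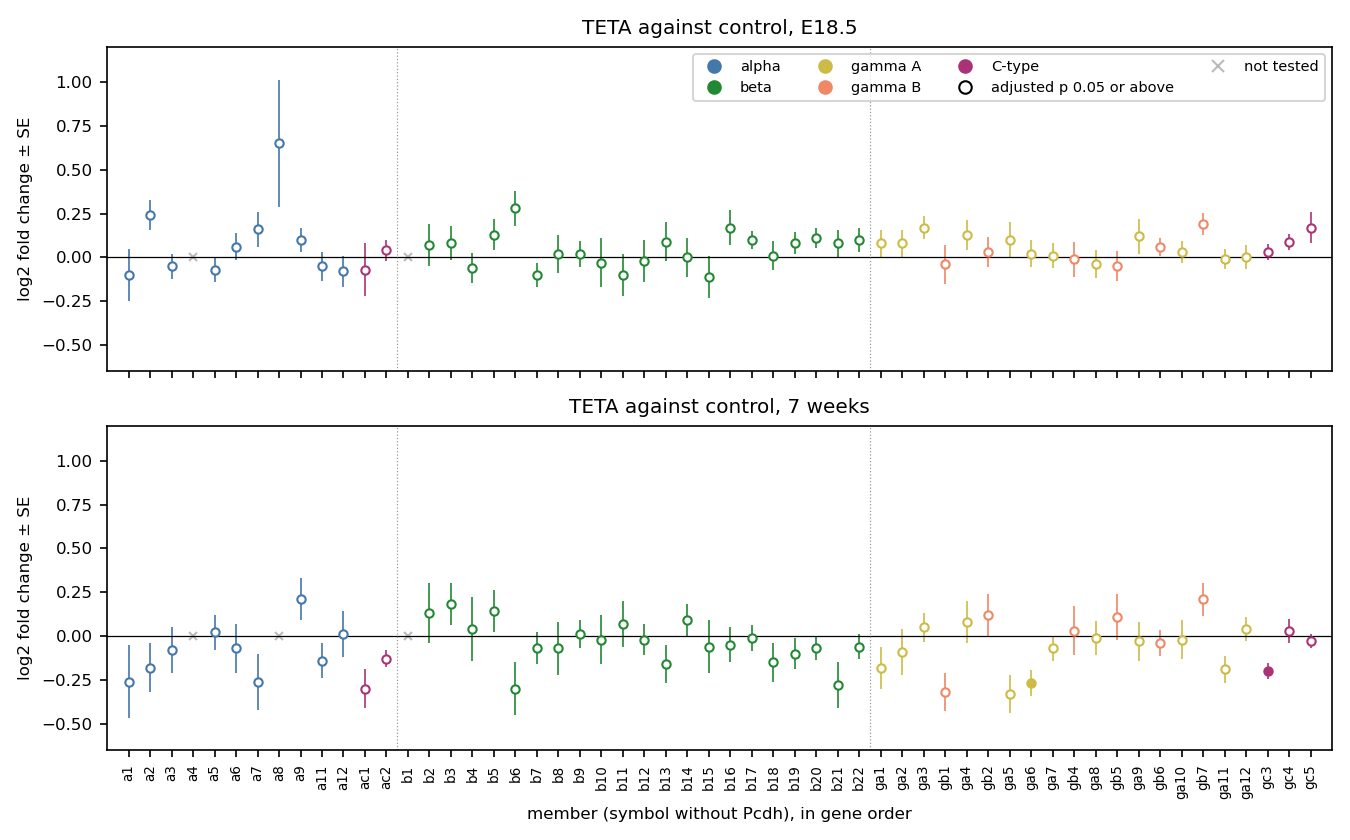
Log2 fold change of each member between TETA and control libraries at E18.5 (top) and 7 weeks (bottom), with its SE, in gene order; dotted lines part the clusters, filled points have an adjusted p under 0.05, open points do not, and crosses drawn at 0 were not tested. The only filled points are Pcdhga6 at -0.27 and Pcdhgc3 at -0.20 at 7 weeks; the wide bar at E18.5 is Pcdha8, a sparse gene.

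In no member did all TETA libraries of 7 weeks lie above every control or all below, where 5.93% of all genes separated downwards and 5.35% upwards. Summed over the cluster, gamma stood at 425 ± 9.98 CPM (SD, n = 4) with TETA against 450 ± 5.43 (n = 5), a log2 ratio of -0.08, and these totals did not overlap. With library totals as the scaling they did, at 401 to 419 against 418 to 431 CPM. The alpha totals were 121 ± 8.66 and 131 ± 4.27 CPM and the beta totals 171 ± 10.8 and 177 ± 6.44 CPM, overlapping in both. The make-up of the clusters was close in the 2 groups: Pcdhgc5 held 35.7% ± 1.78 of gamma counts with TETA and 34.8% ± 1.15 without, and Pcdhac2 48.3% ± 2.13 and 49.4% ± 1.00 of alpha counts. Pcdhgc3 held 15.9% ± 1.06 of gamma counts with TETA and 17.3% ± 1.04 without, and Pcdhac1 4.16% ± 0.477 and 4.79% ± 0.451 of alpha counts, with overlapping ranges.

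Whether the response to TETA differed between the ages was tested as an interaction over all 4 groups. In edgeR 0 of 54 members passed, against 454 of 14660 genes (3.1%), and 10 members (18.5%) and 15.9% of all genes had an unadjusted p under 0.05. The nearest were Pcdhb6, at a log2 difference of -0.60 (SE 0.18), Pcdhgc3, at -0.24 (SE 0.072), and Pcdhga5, at -0.44. Their edgeR adjusted p-values were 0.0551, 0.063 and 0.146. For Pcdhgc3 the TETA effects behind it were 0.03 at E18.5 and -0.20 at 7 weeks, and whether they differ depends on the setting: DESeq2 called this interaction (adjusted p 0.0447), and so did edgeR in 4 of the 21 fits that left out a library (adjusted p 0.0209 to 0.0418), without control 2-2 or TETA 2-2 of E18.5 or control 3 or TETA 2 of 7 weeks. Pcdhb6 had 0.28 at E18.5 and -0.30 at 7 weeks, neither of them called. Its interaction depends on the setting too: edgeR called it in 5 of the 21 fits that left out a library (adjusted p 0.037 to 0.0456). It was also called with genes of at least 50 mean counts (edgeR adjusted p 0.0491). The remaining C-type genes had interaction values of -0.24 (Pcdhac1), -0.19 (Pcdhac2), -0.07 (Pcdhgc4) and -0.21 (Pcdhgc5), all uncalled.

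Genes that act on the clusters were read from lists drawn up for this purpose. The 25 genes of promoter choice and silencing (CTCF, cohesin and its loaders, DNA methyltransferases, TET enzymes and the SETDB1 and SMCHD1 silencing proteins) were all called lower at 7 weeks than at E18.5 in controls, with a median log2 fold change of -1.08, where 45.3% of all genes were called lower. Ctcf, which anchors the promoter loops, went from 138 ± 3.39 to 76.8 ± 1.65 CPM, or by -0.84 (SE 0.036) on the log2 scale. Rad21, a cohesin subunit, changed by -0.87, Smchd1, a silencing protein that acts on these clusters, by -1.22, and Dnmt3b, which methylates their promoters in the early embryo, by -2.61 (SE 0.18). Setdb1, Trim28, Smc3 and Tet1 had the smallest p-values, at -1.45, -1.66, -1.21 and -2.10. In the TETA comparisons 0 of the 25 were called at E18.5 and 2 at 7 weeks, both higher: Tet3, a demethylating enzyme, from 87.8 ± 6.20 to 105 ± 5.23 CPM at a log2 fold change of 0.26 (SE 0.047), and Setdb1, a histone methyltransferase, from 40.4 ± 1.18 to 44.5 ± 2.06 CPM at 0.15 (SE 0.045). These are 8% of the list, against 9.96% of all genes. Setdb1 lost its call without control 2, 3 or 4 or without TETA 3 or 4 (edgeR adjusted p 0.0515 to 0.148). Ctcf, Rad21, Smchd1 and Dnmt3b were not called there.

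The 27 genes of processing and signalling downstream of the protocadherins include the proteases that cut them (ADAM10 and presenilin) and the kinases and actin regulators bound by their tails. With age 16 rose and 8 fell, 88.9% of the list against 89.3% of all genes, so the count does not set the list apart. Among them were Ptk2b at 3.59, a focal adhesion kinase that the constant tails restrain, Prkcb at 2.90, a form of protein kinase C, and Marcks at -2.50, a substrate of that kinase. With TETA 0 were called at E18.5 and 4 fell at 7 weeks, 14.8% of the list against 9.96% of all genes in either direction: Nlgn1, a synaptic adhesion partner of gamma protocadherins, at -0.19, Prkcb at -0.15, Ctnnb1, the Wnt mediator beta-catenin, at -0.15, and Wasf1, an actin regulator of the WAVE complex that alpha tails recruit, at -0.13. In the interaction 3 of these 27 passed, Nlgn1 at -0.23, Wasf1 at -0.21 and Ctnnb1 at -0.17, 11.1% of the list against 3.1% of all genes. Ctnnb1 lost this call in 16 of the 21 fits that left out a library (edgeR adjusted p 0.0588 to 0.112), with library totals (0.147) and with no filter (0.0706). Wasf1 lost it without TETA 3 of 7 weeks or TETA 3-1 of E18.5 and Nlgn1 without TETA 1 of 7 weeks. Wasf1 also lost its call at 7 weeks without TETA 3 (edgeR adjusted p 0.0654).

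Other genes of the cadherin superfamily outside the clusters were also read. Of 20 tested by age 8 were higher and 10 lower at 7 weeks, 90% of them against 89.3% of all genes. Dchs1 and Fat4, a ligand and receptor pair of planar polarity, changed by -3.75 and -3.43, Pcdh18 by -2.07 and Pcdh1 by 1.40. With TETA 0 of 19 were called at E18.5, and 3 rose and 6 fell at 7 weeks, 47.4% of the 19 against 9.96% of all genes. Among them were Pcdh20 at -0.38, Celsr3, an axon guidance receptor, at 0.31, Pcdh15, a hair-cell tip-link protein, at 0.32, and Fat2, with a mean of 0.741 CPM in the 7-week controls, at -1.95. In the interaction 1 of 20 was called (5%, against 3.1% of all genes), Pcdh20 at -0.32. That call was lost with library totals (edgeR adjusted p 0.0753), with no filter (0.0511) and in 16 of the 21 fits that left out a library (0.0518 to 0.0854). Of 16 unrelated or flanking genes beside the clusters on chromosome 18, 6 were higher and 8 lower by age (87.5%, against 89.3% of all genes), with Fchsd1 at -2.26, Zmat2 at 1.07 and Rell2 at 1.06, and 1 was called for TETA at 7 weeks, Pcdh1 at 0.15. Pcdh1 is also counted among the cadherin genes above. The calls for TETA at 7 weeks in all these lists come from the libraries whose striatal markers differ, and the part of that difference was not tested gene by gene.

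Cell type markers moved with age beside the protocadherin changes. Of 10 neuronal markers 8 were higher and 2 lower at 7 weeks, all 8 astrocyte and 8 of 9 oligodendrocyte lineage markers were higher, and all 9 neural progenitor markers were lower. The shares over all genes were 44% higher and 45.3% lower. Astrocyte markers summed to 518 to 598 CPM in E18.5 controls and 5894 to 6806 in 7-week controls, oligodendrocyte lineage markers to 206 to 227 and 6807 to 7978, and progenitor markers to 1040 to 1170 and 109 to 119. The falls of gamma and alpha variants and of the promoter-choice genes coincide with this change in cells, and its part in them was not tested. Serotonergic markers, of interest for Pcdhac2, gave 3 higher and 2 lower of 5 tested, and were sparse. Slc6a4 went from a mean of 1.35 to 0.0318 CPM and Slc18a2 from 6.52 to 0.109. Tph2, Ddc and Gata2 were higher, at means of 1.32, 5.21 and 3.40 CPM at 7 weeks, and Fev was at 0 in every library. The list therefore does not resolve serotonergic content. With TETA 0 markers of any list were called at E18.5. At 7 weeks, besides the striatal list, 3 of 8 astrocyte, 2 of 10 neuronal, 2 of 8 progenitor, 1 of 9 oligodendrocyte and 1 of 6 choroid plexus markers tested were lower. Called higher were 1 of 10 neuronal, 1 of 8 endothelial and 1 of 3 serotonergic markers tested. Over all genes 4.28% were called lower and 5.67% higher.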

How the data were processed

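The authors deposited whole-number counts per gene symbol, in a table for each age whose columns are the libraries. The submitters' processing notes name STAR 2.7.1a, featureCounts 2.0.1 and the mm10 build, without roles or options. The annotation, the strand setting and the counting of shared-exon or multiply mapped reads are not given in the sources used here. Libraries were stranded poly(A) libraries (TruSeq), per the labels' protocols.

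The E18.5 rows at 0 in control 1-1, which hold multiples of 11, were divided by 11. Genes passing filterByExpr (minimum count 10) were tested with edgeR 4.0.16 (glmQLFit and glmQLFTest, TMM scaling, R 4.3.3), within each age for TETA and over all 21 libraries for age and interaction, with Benjamini-Hochberg adjustment over all genes tested and a threshold of 0.05. CPM values and totals use TMM over all libraries. On simulated data, log2 changes of 0.5 were recovered for 93.5% of 200 altered genes at E18.5, 87.5% at 7 weeks, 86.0% by age and 77.0% in the interaction. That simulation gave every gene the same fixed dispersion, and altered genes had changes of at least 0.5. It therefore does not measure how often the smaller TETA differences seen here would be found. Over 46 replicate pairs the lowest chi-square per gene was 2.35, so no pair differed by sampling noise alone. This does not show that libraries came from separate animals.

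Alternatives were DESeq2 1.42.0, library totals, other filters, undivided counts, covariates, a replicate block and leaving out each library. The members and lists were chosen with earlier results of these data known. The C-type genes were named in every comparison. Further members were named by smallest p, by the highest and lowest fold in each cluster and by level per kilobase, and list genes by smallest p, up to 4 per list. 1 list gene that this rule names is not reported here. Pcdhb13, Pcdhb10, Pcdhb11, Pcdhb14 and the uncalled members were named after their values were seen.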

Additional observations from a re-analysis of the deposited data

Results flagged for a closer look

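In 8 of 76 groups of libraries examined over 19 items, 1 library stood apart from the rest of its group, with a gap to its nearest neighbour that was large against the whole range (Dixon's 95% criterion). Chance gives about 1 in 20, or 3.8 of 76. The gamma total of control 2-2 at E18.5 was 539 CPM against 482 to 494 in the other 5. At E18.5 with TETA, library 3-1 was high in Pcdhga11, at 47.7 CPM against 36.9 to 40.4, and in Pcdhb4, at 8.59 against 5.91 to 6.84. Library 3-2 was high in Pcdhb6, at 5.22 CPM against 3.82 to 4.33, and low in Pcdhgc5, at 7.11 against 8.27 to 8.59. Among 7-week controls, Pcdhac2 was 66.8 CPM in replicate 3 against 64.0 to 64.6, Pcdhb4 was 3.71 in replicate 4 against 2.44 to 2.77, and Pcdhga11 was 26.6 in replicate 1 against 19.5 to 21.4.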

How the results depend on the processing

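The number of members called for TETA was 0 at E18.5 under every alternative run. At 7 weeks it was 2, and 0 with the striatal score as a covariate, where no gene of the table was called. It was 3 with DESeq2 and with no filter, which added Pcdhga5. It ran from 1 to 3 when each library was left out, with 1 without control 3 or TETA 2. By age it stayed between 42 and 45 with a library left out. The interaction count of 0 became 1 with DESeq2 (Pcdhgc3, adjusted p 0.0447), 1 with genes of at least 50 mean counts (Pcdhb6, edgeR adjusted p 0.0491), and 0 to 2 with a library left out, above 0 without control 1-2 or 2-2 or TETA 1-2 or 2-2 of E18.5, or control 3 or 4 or TETA 2 or 4 of 7 weeks. The cause was not tested. With the replicate block Setdb1 lost its call at 7 weeks (edgeR adjusted p 0.0897). The replicate numbers showed no clear pairing of control with TETA libraries: same-numbered ones correlated on average at 0.0188 at E18.5 and -0.0504 at 7 weeks, and matched best in 2 of 6 and 0 of 4 cases. Whether E18.5 libraries of the same group that share a first number are related was not tested. With the replicate block 0 members were called at E18.5 and 2 at 7 weeks. The log2 ratios of the cluster totals by age, -0.14, -0.30 and -0.15 for alpha, beta and gamma, became -0.28, -0.44 and -0.29 with library totals, -0.32, -0.19 and -0.34 as mean log2(CPM + 1) over members, and, in an alternative chosen after seeing the data, -0.28, -0.40 and -0.28 in the TETA libraries. The gamma ratio for TETA at 7 weeks became -0.06 with library totals. With the striatal covariate at 7 weeks the sign turned for Celsr3 (-0.10), Pcdhac2 (0.13), Pcdhgc4 (-0.16), Rad21 (0.09), Setdb1 (-0.03) and Smchd1 (-0.04). With library totals at E18.5, Ctcf and Smchd1 became -0.00. With a library left out, values near 0 changed sign: for TETA at E18.5 Ctcf ran from -0.03 to 0.02, Rad21 from -0.01 to 0.03 and Smchd1 from -0.02 to 0.04, for TETA at 7 weeks Pcdhgc4 from -0.01 to 0.06 and Pcdhgc5 from -0.07 to 0.00, and for the interaction Smchd1 from -0.02 to 0.04. Low counts limit Pcdha4, Pcdha8 and Pcdhb1, and Pcdha4 has only 0.494 kb of exclusive exon. Shared exons, antisense genes and tissue composition could not be separated further.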
